A study of Mus musculus with 6 samples.

Results

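Mature oligodendrocytes wrap the axons of the brain in myelin, and they need more than the structural proteins of the sheath to do so. Enzymes make the galactolipids and long fatty acids of the membrane, gap junctions pass ions and metabolites to astrocytes and between myelin layers, adhesion and matrix proteins hold the sheath to the axon, and transport and stress proteins keep the cell supplied. A set of 37 such genes was examined in mouse hippocampus, of which 34 could be measured among 22180 genes tested. Each member was read from a probe set whose platform annotation named that gene alone, and where several did, the one with the highest mean over all 6 arrays was taken. The probe sets were thus chosen by their mean signal, and no other measured value entered the rule, although the set itself was proposed with earlier results of these data known. Trf and Evi2a were named only by probe sets shared with another gene, and Enpp2 was not analysed here.

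The samples were hippocampi of male C57BL/6J-background mice, all at postnatal day 56, with 3 labelled Trpc4 wild type and 3 labelled Trpc4 knock out, each hybridised to 1 Affymetrix array. Trpc4 encodes a receptor-operated cation channel. Neither the deleted part of Trpc4 is given in the labels nor whether each replicate is a separate animal, so that p-values measure only the spread among these 6 samples, part of which may be technical. All values are log2 signals, and all differences are knockout minus wild type. A signal depends on the affinity of its probes, so levels of different genes were not compared.

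Array medians lay between 4.73 and 4.75, and any pair of arrays correlated at a Pearson's r of 0.985 to 0.988 over the probe sets, which are not independent replicates. The Trpc4 signal was 8.06, 8.23 and 8.06 in wild-type replicates 1 to 3 and 7.39, 7.55 and 7.31 in knockout replicates 1 to 3, a difference of -0.70 with a standard error of 0.09. An exact permutation test (two-sided) gave it a p of 0.1, below which 3 against 3 samples cannot go, and its limma p adjusted over all genes was 0.738. All 12 measured neuron markers had mean signals above the median of all probe sets (4.72), as did all 10 measured genes of myelin sheath proteins. So did 12978 of the 22180 genes tested, and the same held for all 12 measured astrocyte genes.

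Signals of most of the set were lower in the knockout samples. Of the 34 measured members 31 had a difference below 0, where 45.1% of all genes tested did, and the median difference was -0.24 against 0.01 for all genes. The differences ran from -0.82 for Cryab to 0.23 for Gal3st1. By limma 0 of the 34 passed an adjusted p of 0.05, as did 0% of all genes tested, and the members' adjusted p values lay between 0.849 and 0.960. At an unadjusted p under 0.05, which does not control false discoveries, 11 members were lower and 0 higher, where 2.59% of all genes tested were lower and 3.16% higher. These 11 were Cryab, Aspa, Ermn, Gjc3, Tmem88b, Hapln2, Ugt8a, Anln, Nipal4, Fa2h and Pllp. All 3 knockout values lay below all 3 wild-type values for 14 members, and for 4.45% of all genes tested. No member had all 3 knockout values above the wild-type values, a pattern found in 6.41% of all genes. Because the members varied together across the samples, these counts are not counts of separate findings. In whole tissue, fewer oligodendrocytes and less RNA per oligodendrocyte cannot be told apart.

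**Figure D1:**
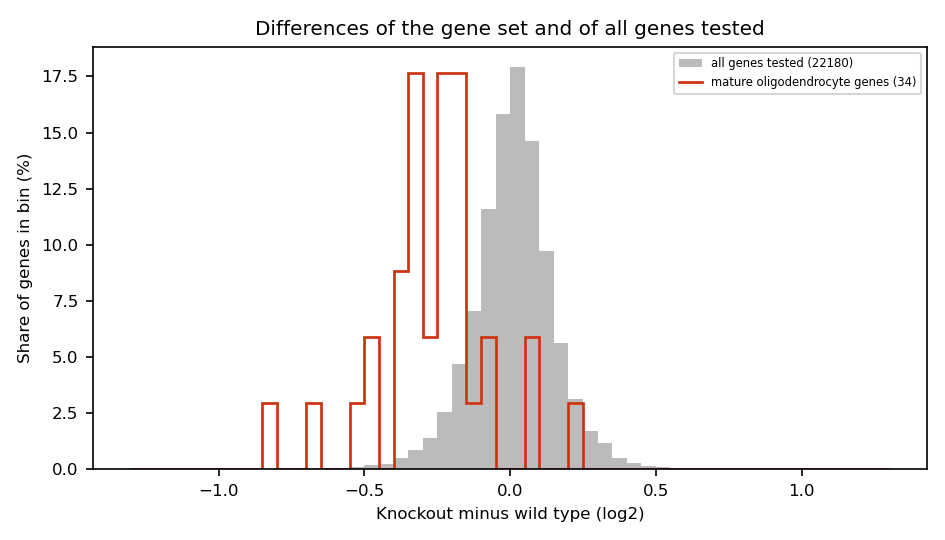
Share of genes (vertical axis, percent of each set) by knockout minus wild-type difference (horizontal axis, log2, bins of equal width) for all 22180 genes tested, in grey, and for the 34 measured mature oligodendrocyte genes, as a red outline. The median of the 34 is -0.24 and that of all genes is 0.01.

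The 3 knockout samples were not alike. Against the wild-type mean of each gene, the median member lay at -0.24 in knockout replicate 1, at -0.49 in replicate 2 and at -0.05 in replicate 3, where the medians of all genes tested were 0.01, 0.02 and 0.01. Knockout replicate 2 gave the lowest of all 6 signals for 28 of the 34 members and for 15.1% of all genes. Among the knockout samples alone, replicate 3 was the highest for 29 members (31.1% of all genes), and the full order of replicate 2, then 1, then 3 from low to high held for 25 members (15.1% of all genes). Of the members, 31 lay below the wild-type mean in knockout replicate 1 (47.1% of all genes), 32 in replicate 2 (44.9%) and 23 in replicate 3 (47.7%). The wild-type samples lay close together, with a median SD of 0.10 over members, against 0.20 in knockout. For all genes the median SD was 0.11 in both groups. The knockout SD was the larger one for 29 of 34 members and for 49.3% of all genes.

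Averaged over the members, each as its deviation from the gene mean, the score was 0.15, 0.10 and 0.14 for the wild-type samples, replicates 1 to 3. The knockout scores were -0.10, -0.35 and 0.06 in the same order, all below the wild-type scores. The difference of the scores was -0.26, and without knockout replicate 2 it was -0.15. For 28 of the 34 members, leaving out a single sample moved the difference by over 1.5 times. Of the values with a sample left out, the highest was that without knockout replicate 2 for 25 members, and the lowest that without knockout replicate 3 for 27. Without knockout replicate 2, 30 of 34 members were still lower, and 6 (Aspa, Cryab, Gjc3, Tmem88b, Anln and Nipal4) had an unadjusted p under 0.05, where 2.48% of all genes were lower at that p. Without knockout replicate 3, 21 members passed that p, where 2.93% of all genes did. The count was also 6 without wild-type replicate 1 and 6 without wild-type replicate 3, where 3.19% and 2.11% of all genes passed. Aspa, Gjc3, Tmem88b and Nipal4 had an unadjusted p under 0.05 whichever single sample was left out.

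**Figure D2:**
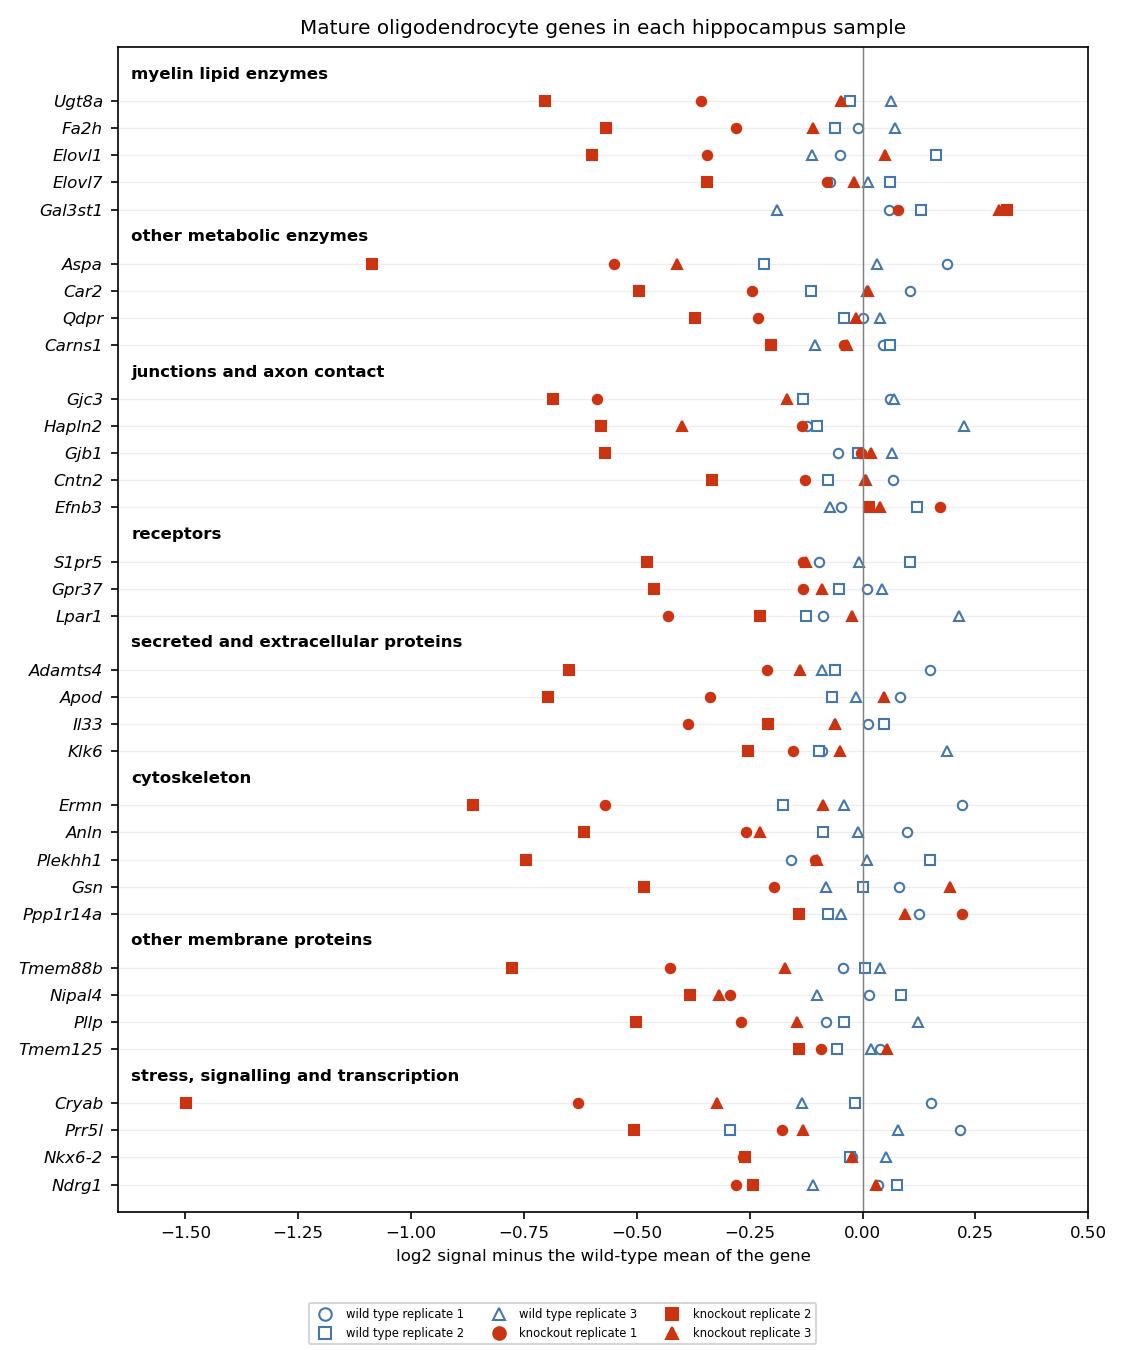
Log2 signal of each measured gene in each sample minus the wild-type mean of that gene (horizontal axis), by role. Open blue symbols are wild type, filled red symbols are knockout, and the shape gives the replicate (circle 1, square 2, triangle 3). Knockout replicate 2 is the lowest symbol for 28 of the 34 genes, and knockout replicate 3 lies nearest to or within the wild-type values for most.

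The bases just upstream of the start sites of the members were read from RefSeq (GRCm38.p6). The table held 27 of the 37 members. In windows of 250 bases before each start site, 3 motifs of oligodendrocyte transcription factors were searched on both strands. The first was a SOX-type motif spelled AACAAT. The second was a SOX-type motif shifted by 1 base and spelled ACAATG, so that a single stretch of sequence can hold both. The third was the motif of the myelin regulatory factor MYRF, for which CTGGCAC was accepted. A spelling variant of the MYRF motif, CTGGTAC, was counted with it. The first motif was found in 7 of the 27 genes (25.9%), where 10.9% of all 27025 genes in the table held it in at least 1 of their windows. The second was found in 8 (29.6%, against 12.2%), and the MYRF motif in 4 (14.8%, against 6.79%). Some genes have several windows, and per window the shares were 19.5% of the 41 member windows against 9.42% of all windows for the first, 24.4% against 10.7% for the second, and 9.76% against 5.93% for MYRF. A match of letters is a description and not a binding site. The members were picked as oligodendrocyte genes, and whether the motifs bear on their signals in knockout was not tested.

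Of 11 members with a single start site and a window outside any annotated gene, the 3 with an unadjusted p under 0.05 and a match are shown. Gjc3, picked by name, also has an unadjusted p under 0.05 but no match, and is shown as an example. All lie on the minus strand and are written 5′ to 3′ along the gene, up to the base before the start site, with motif matches in capitals. Ermn lies at chr2:58052865-58053114, Hapln2 at chr3:88027512-88027761, Tmem88b at chr4:155785875-155786124 and Gjc3 at chr5:137963099-137963348.
Ermn: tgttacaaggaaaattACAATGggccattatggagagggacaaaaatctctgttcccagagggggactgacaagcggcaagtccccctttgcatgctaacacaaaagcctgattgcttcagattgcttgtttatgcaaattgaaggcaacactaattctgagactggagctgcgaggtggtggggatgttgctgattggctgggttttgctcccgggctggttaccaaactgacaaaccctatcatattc
Hapln2: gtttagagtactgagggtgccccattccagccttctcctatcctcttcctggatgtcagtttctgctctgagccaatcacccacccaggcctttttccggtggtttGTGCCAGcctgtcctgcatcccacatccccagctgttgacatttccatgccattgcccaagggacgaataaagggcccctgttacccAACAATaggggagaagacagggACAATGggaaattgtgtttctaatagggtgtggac
Tmem88b: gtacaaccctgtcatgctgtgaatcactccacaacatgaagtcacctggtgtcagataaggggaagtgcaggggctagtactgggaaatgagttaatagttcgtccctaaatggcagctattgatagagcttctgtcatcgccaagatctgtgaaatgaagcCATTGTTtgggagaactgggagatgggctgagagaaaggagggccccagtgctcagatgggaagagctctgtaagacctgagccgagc
Gjc3: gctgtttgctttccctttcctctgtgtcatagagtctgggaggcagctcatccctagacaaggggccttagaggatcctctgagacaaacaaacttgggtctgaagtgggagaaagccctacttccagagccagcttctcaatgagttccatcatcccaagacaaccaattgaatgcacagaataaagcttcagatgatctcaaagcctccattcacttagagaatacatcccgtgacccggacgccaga
Ermn holds 1 match, to the second SOX-type motif. Hapln2 holds 3, the MYRF motif on the opposite strand, farthest from the start site, and then each SOX-type motif. Tmem88b holds 2 that overlap, both SOX-type motifs on the opposite strand. The 4 genes differed by -0.51, -0.37, -0.46 and -0.48 between knockout and wild type, in that order with Gjc3 last. As all 4 had been picked with an unadjusted p under 0.05, differences of this kind follow from the choice. Whether they go with a match was not tested.

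Among the enzymes of myelin lipids, 4 of 5 had lower signals in knockout. Ugt8a makes galactosylceramide, the main galactolipid of myelin, and had signals of 9.09, 9.10 and 9.19 in wild type and 8.76, 8.42 and 9.07 in knockout (replicates 1 to 3 in each). The groups did not overlap, although knockout replicate 3 lay only 0.013 below the lowest wild-type sample, and they overlapped after quantile normalization. Knockout minus wild type was -0.37 ± 0.15 (standard error; limma, adjusted p 0.853), and -0.20 without knockout replicate 2. Fa2h adds the hydroxyl group to the fatty acids of these lipids. Its signals were 7.58, 7.53 and 7.66 in wild type and 7.31, 7.02 and 7.48 in knockout, a difference of -0.32 ± 0.12 (standard error) with groups that did not overlap, and -0.19 without knockout replicate 2. Elovl1, an elongase of very long saturated fatty acids, had 5.69, 5.90 and 5.63 in wild type and 5.40, 5.14 and 5.79 in knockout. Here knockout replicate 3 was inside the wild-type range, and the difference was -0.30 ± 0.16, or -0.15 without knockout replicate 2 and -0.47 without replicate 3. For the elongase gene Elovl7 the difference was -0.15 ± 0.10, and -0.05 without knockout replicate 2.

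Gal3st1 went the other way. It sulphates galactosylceramide to sulphatide, the step after Ugt8a, and its signals were 5.31, 5.38 and 5.06 in wild type and 5.33, 5.57 and 5.55 in knockout. Knockout replicate 1 lay inside the wild-type range and the other two above it. The difference was 0.23, with a 95% confidence interval of -0.03 to 0.49 and a limma adjusted p of 0.859. Knockout replicate 2, the lowest sample for most members, was the highest for Gal3st1. The sign stayed the same under every alternative run, with 0.14 the lowest value, reached without wild-type replicate 3.

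Of the list of 20 other measured genes of sphingolipid and very-long-chain fatty acid metabolism, 12 were lower and 8 higher, with a median of -0.03, and 0 passed the adjusted threshold. Only Cers2 had an unadjusted p under 0.05. It encodes the ceramide synthase that uses very long acyl chains, and it had 6.88, 7.06 and 7.00 in wild type and 6.65, 6.62 and 6.92 in knockout, a difference of -0.25 ± 0.10 (-0.14 with the mean of all its probe sets). Knockout replicate 3 again lay within the wild-type range.

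Aspa had the second largest difference of the set. It cleaves N-acetylaspartate, which neurons export, into aspartate and acetate in oligodendrocytes. Its signals were 6.97, 6.56 and 6.81 in wild type and 6.23, 5.70 and 6.37 in knockout. The groups were apart, and the geometric mean of the knockout signals was 62.3% of that of wild type. The difference was -0.68 ± 0.18 (95% interval -1.11 to -0.25, limma adjusted p 0.849). It was -0.48 without knockout replicate 2 and -0.82 without replicate 3 of that group.

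Other genes of the N-acetylaspartate cycle went both ways. Of 9 measured, 3 were lower and 6 higher, with a median of 0.05, and 0 passed the adjusted threshold. At an unadjusted p under 0.05 there were 3, all higher with groups apart. Of all genes tested, 3.16% were higher at that p, and 6.41% had groups apart in that direction. Acss2, which turns acetate into acetyl-CoA in cytosol and nucleus, had 7.15, 7.15 and 7.03 in wild type and 7.56, 7.37 and 7.27 in knockout, a difference of 0.29 ± 0.10. Its mitochondrial relative Acss1 differed by 0.21, which turned to -0.05 with the mean of all its probe sets. Rimklb, a synthase of N-acetylaspartylglutamate, differed by 0.20 ± 0.07, with 7.20, 7.22 and 7.14 in wild type and 7.40, 7.38 and 7.39 in knockout.

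The other metabolic enzymes overlapped between the groups. Car2, the cytosolic carbonic anhydrase of oligodendrocytes, had 9.48, 9.26 and 9.38 in wild type and 9.13, 8.88 and 9.39 in knockout, a difference of -0.24 ± 0.13. Qdpr, which regenerates tetrahydrobiopterin, had 6.72, 6.68 and 6.76 against 6.49, 6.35 and 6.71, a difference of -0.21 ± 0.10. Without knockout replicate 2 the differences were -0.12 for Car2 and -0.12 for Qdpr, and without replicate 3 that of Car2 was -0.37. In both genes knockout replicates 1 and 2 were below every wild-type sample and replicate 3 was among them. Carns1, the carnosine synthase, differed by -0.09 ± 0.09 (-0.04 without knockout replicate 2, -0.15 without wild-type replicate 3). Of 7 measured genes of tetrahydrobiopterin and carnosine metabolism outside the set, 6 were lower and 1 higher, with a median of -0.09. Of these 7, 0 passed the adjusted threshold, and 1 had an unadjusted p under 0.05, Pcbd1, which recycles the same cofactor, at 0.23 ± 0.10 (0.13 without wild-type replicate 1).

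Both connexins of the set had lower means in knockout. Gjc3 encodes connexin 29, found on the innermost myelin layer, and its signals were 9.12, 8.92 and 9.12 in wild type and 8.47, 8.37 and 8.89 in knockout. The groups were apart by 0.04, and the difference was -0.48 ± 0.14 (95% interval -0.81 to -0.15, limma adjusted p 0.849). Gjb1 encodes connexin 32, which couples myelin layers to each other and to astrocytes. It had 5.34, 5.39 and 5.46 in wild type and 5.39, 4.83 and 5.41 in knockout. Knockout replicates 1 and 3 lay inside the wild-type range, replicate 2 alone was lower, and the difference of -0.19 ± 0.16 became 0.01 without it and -0.29 without replicate 3. Of 5 measured genes of other connexins and the glial potassium channel Kcnj10, 3 were lower and 2 higher, with a median of -0.09, and 0 passed the adjusted threshold. Gjc1, the one with an unadjusted p under 0.05, differed by 0.25 ± 0.10 and was dimmer than the median probe set.

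Genes at the contact of myelin and axon were mixed. Hapln2 links matrix proteins at nodes of Ranvier, and its signals were 6.25, 6.27 and 6.60 in wild type and 6.24, 5.80 and 5.97 in knockout. The groups did not overlap, with knockout replicate 1 just under the lowest wild-type sample, and the difference was -0.37 ± 0.14. Unlike most of the set, it was lower in knockout replicate 3 than in replicate 1. Cntn2, an adhesion protein beside the paranode that some neurons also make, had 7.70, 7.56 and 7.64 against 7.51, 7.30 and 7.64, a difference of -0.15 ± 0.10 (-0.06 without knockout replicate 2, -0.23 without replicate 3). Efnb3, an ephrin that neurons also make, differed by 0.07 ± 0.09, with overlapping groups. The Efnb3 value was 0.03 without knockout replicate 1, 0.04 without wild-type replicate 3 and 0.13 without wild-type replicate 2. Of 15 measured genes of the node, paranode and juxtaparanode, many of them neuronal, 6 were lower and 9 higher, with a median of 0.03. Of these, 0 passed the adjusted threshold and 0 had an unadjusted p under 0.05.

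All 3 receptor genes were lower on average, and none had an unadjusted p under 0.05. S1pr5, the sphingosine 1-phosphate receptor of oligodendrocytes, had 6.80, 7.00 and 6.89 in wild type and 6.77, 6.42 and 6.77 in knockout, a difference of -0.25 ± 0.12. The orphan receptor gene Gpr37 had 8.69, 8.63 and 8.72 against 8.55, 8.22 and 8.59, a difference of -0.23 ± 0.11. In both the groups were apart by a narrow gap, and knockout replicate 2 stood below the other two. Without that sample the differences were -0.13 for S1pr5 and -0.11 for Gpr37. Lpar1, the lysophosphatidic acid receptor, had 6.32, 6.28 and 6.62 against 5.98, 6.18 and 6.39, with overlap and with knockout replicate 1 the lowest. Its difference was -0.23 ± 0.13, and -0.12 without wild-type replicate 3 or -0.13 without knockout replicate 1. Among 14 other measured genes of lysophospholipid signalling, 8 were lower and 6 higher, with a median of -0.01, and 0 passed the adjusted threshold or an unadjusted p of 0.05.

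The 4 secreted and extracellular members were lower on average, and none had an unadjusted p under 0.05. Adamts4, a protease that cleaves matrix proteoglycans, had 5.90, 5.69 and 5.66 in wild type and 5.54, 5.10 and 5.61 in knockout, a difference of -0.33 ± 0.14 with groups apart, and -0.18 without knockout replicate 2. Apod, a lipid carrier, had 7.82, 7.67 and 7.72 against 7.40, 7.04 and 7.78. Knockout replicate 3 was within the wild-type range, and the difference of -0.33 ± 0.17 became -0.15 without knockout replicate 2 and -0.52 without replicate 3. Il33, a nuclear alarmin of oligodendrocytes and some astrocytes, had 7.34, 7.38 and 7.27 against 6.94, 7.12 and 7.27, a difference of -0.22 ± 0.10 in which the highest knockout sample and the lowest wild-type sample nearly coincided. They overlapped after quantile normalization or median centring, and the Il33 difference was -0.14 without knockout replicate 1. Klk6, a protease of oligodendrocytes, was the one member with a mean below the median of all probe sets, and differed by -0.15 ± 0.10 (-0.06 without wild-type replicate 3). Of 10 measured genes of iron uptake and storage, in which oligodendrocytes take a large part, 2 were lower and 8 higher, with a median of 0.04, and 0 passed the adjusted threshold or an unadjusted p of 0.05.

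Cytoskeletal members held both lower values and one slightly higher. Ermn, an actin-binding protein of late oligodendrocytes, had 8.46, 8.06 and 8.20 in wild type and 7.67, 7.38 and 8.15 in knockout, a difference of -0.51 ± 0.20 (95% interval -0.96 to -0.05) with knockout replicate 3 inside the wild-type range. Leaving out knockout replicate 2 gave -0.33. Anln, the actin-binding protein anillin, had 6.68, 6.49 and 6.57 against 6.32, 5.96 and 6.35, a difference of -0.37 ± 0.12 with groups apart, and -0.24 without knockout replicate 2. As anillin also acts in cell division, 6 measured genes of dividing cells were read beside it: 4 were lower and 2 higher, with a median of -0.04 and 0 past the adjusted threshold. Of these Cdk1, dimmer than the median probe set, differed by -0.43 ± 0.11, and the part of dividing cells in the Anln result was not tested.

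Plekhh1 had 6.50, 6.81 and 6.67 against 6.55, 5.91 and 6.56, so that knockout replicate 2 alone was below the wild-type range. Its difference of -0.32 ± 0.18 became -0.10 without that sample. Gsn, the actin-severing protein gelsolin, had 7.22, 7.14 and 7.06 against 6.94, 6.65 and 7.33. Knockout replicate 3 was the highest of all 6 samples, and the difference of -0.16 ± 0.16 became -0.0014 without knockout replicate 2 and -0.34 without replicate 3. Ppp1r14a, an inhibitor of myosin phosphatase, differed by 0.06 ± 0.11, and leaving out knockout replicate 1 gave -0.02 and knockout replicate 2 gave 0.16. Without wild-type replicate 1, 2 or 3 the Ppp1r14a value was 0.12, 0.02 or 0.03. Vessel and meningeal cells also make Gsn and Apod. The score over 10 mural cell and fibroblast markers lay between -0.05 and 0.05 in wild type and between -0.12 and 0.09 in knockout, lowest in replicate 2 and highest in replicate 3, and its part in these values was not tested.

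Tmem88b, a membrane protein of oligodendrocytes, had 8.48, 8.53 and 8.57 in wild type and 8.10, 7.75 and 8.36 in knockout. The wild-type SD was 0.04, the groups were apart, and the difference was -0.46 ± 0.14 (95% interval -0.80 to -0.12, limma adjusted p 0.849), or -0.30 without knockout replicate 2. Nipal4, a magnesium transporter relative, had 5.86, 5.93 and 5.74 against 5.55, 5.46 and 5.53. This was the member whose knockout samples agreed best among themselves, with an SD of 0.05, and all 3 lay below the wild-type samples. Its difference of -0.33 ± 0.08 had the lowest unadjusted p of the set (0.0036, adjusted 0.849 by limma) and ran from -0.38 to -0.29 when each sample was left out in turn. Pllp, plasmolipin, a membrane protein of myelin, had 8.18, 8.22 and 8.38 against 7.99, 7.75 and 8.11, a difference of -0.31 ± 0.11 with groups apart. Tmem125 differed by -0.06 ± 0.08 with overlapping groups (-0.02 without knockout replicate 2, -0.12 without replicate 3).

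Cryab, a small heat shock protein abundant in oligodendrocytes, had the largest difference and the largest spread. Its signals were 8.80, 8.63 and 8.51 in wild type and 8.01, 7.14 and 8.32 in knockout, so that the groups were apart and knockout replicate 2 lay far below the rest. The geometric mean of the knockout signals was 56.7% of that of wild type. The difference was -0.82 ± 0.27 (95% interval -1.45 to -0.19, limma adjusted p 0.849). Without knockout replicate 2 it was -0.48, and without replicate 3 it was -1.06. A second, dimmer probe set of Cryab had 5.14, 4.96 and 5.01 against 4.58, 4.77 and 4.63, a difference of -0.38 in which knockout replicate 2 was not the lowest. Second probe sets of Tmem88b and Ndrg1 differed by -0.27 and -0.18, with overlapping groups. Both were dim, with wild-type means of 4.66 and 4.28, below the median of all probe sets (4.72).

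Ndrg1, a stress-responsive protein that myelinating cells need, had 8.80, 8.85 and 8.66 in wild type and 8.49, 8.53 and 8.80 in knockout, a difference of -0.16 ± 0.11 (-0.11 without knockout replicate 1, -0.26 without replicate 3). Nkx6-2, a homeobox factor of the lineage, had 6.00, 5.99 and 6.07 against 5.76, 5.76 and 6.00, a difference of -0.18 ± 0.09. In both, knockout replicates 1 and 2 were nearly equal and below the wild-type samples, and replicate 3 was among them. Prr5l, a regulator of the mTORC2 kinase complex, differed by -0.27 ± 0.15 with overlapping groups. Its value was -0.16 without knockout replicate 2, -0.16 without wild-type replicate 1 and -0.42 without wild-type replicate 2.

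**Figure D3:**
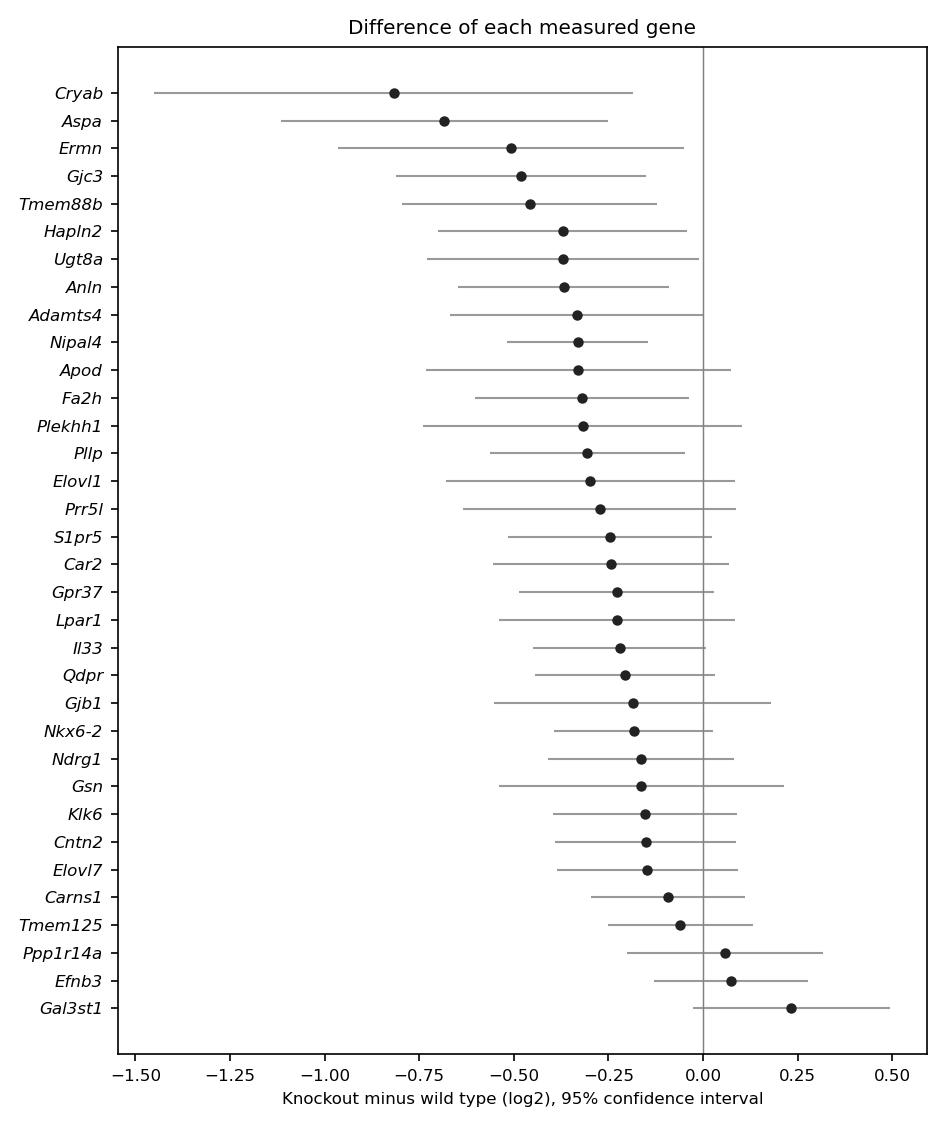
Knockout minus wild-type difference of each measured gene (points, log2) with its 95% confidence interval from limma (lines), ordered by size. The intervals of 11 genes lie wholly below 0, and none lies wholly above 0.

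Other stages of the oligodendrocyte lineage were set beside the mature genes, with no test of the difference between lists. All 10 measured genes of myelin sheath proteins were lower, with a median of -0.44, and 9 of them had an unadjusted p under 0.05 (2.59% of all genes were lower at that p). Their score was 0.20, 0.15 and 0.22 in wild-type replicates 1 to 3 and -0.21, -0.42 and 0.06 in knockout, with the knockout samples in the same order as for the mature genes. That order was not particular to the lineage, as given below for other cell types. Of 8 transcription factors of the lineage all were lower, with a median of -0.14, and Nkx2-2 alone had an unadjusted p under 0.05 (-0.28 ± 0.10). Newly forming oligodendrocytes were represented by 8 genes, 5 lower and 3 higher, with a median of -0.01. Within that list Enpp6, a choline phosphodiesterase, differed by -0.52 ± 0.18 (-0.37 without knockout replicate 2). Bcas1 differed by -0.37 ± 0.14 (-0.24 without knockout replicate 2, -0.26 with the mean of all its probe sets). Of 8 precursor genes 2 were lower and 6 higher, with a median of 0.04. Gpr17 differed by -0.26 ± 0.11 (-0.16 without knockout replicate 2) and Lhfpl3 by 0.18 ± 0.08. In these 4 lists 0 genes passed the adjusted threshold.

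Lists of other cell types had median differences nearer to 0 than the set. Median differences were -0.01 for 12 astrocyte genes, 0.01 for 12 microglia genes, -0.07 for 10 endothelial genes, -0.01 for 10 mural cell and fibroblast genes and -0.0046 for 12 neuron genes, and 0 of these passed the adjusted threshold. Neuron scores ran from -0.0028 to 0.0081 in wild type and from -0.04 to 0.03 in knockout, and astrocyte scores from -0.01 to 0.04 and from -0.05 to 0.05. The knockout order of the set, replicate 2, then 1, then 3, also held for astrocyte, microglia, mural cell and precursor scores. In knockout replicates 1 to 3 the scores were -0.047, -0.053 and 0.048 for astrocytes and 0.035, -0.045 and 0.047 for microglia. Endothelial, neuron and choroid plexus scores had other orders. Of 9 choroid plexus genes 7 were lower, with a median of -0.10. Their score lay between 0.05 and 0.07 in wild type and was -0.20, -0.04 and 0.06 in knockout replicates 1 to 3, lowest in replicate 1 rather than 2. Of the choroid plexus genes 4 had mean signals above the median of all probe sets, among them Ttr, which differed by -0.43 ± 0.18 (-0.27 without wild-type replicate 3). At an unadjusted p under 0.05 the only others were Wfs1 among the neuron genes, a CA1 marker, at -0.25 ± 0.08, and Acta2 among the mural genes, the smooth muscle actin, at -0.24 ± 0.09. The part of these cells in the results of the set was not tested.

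**Figure D4:**
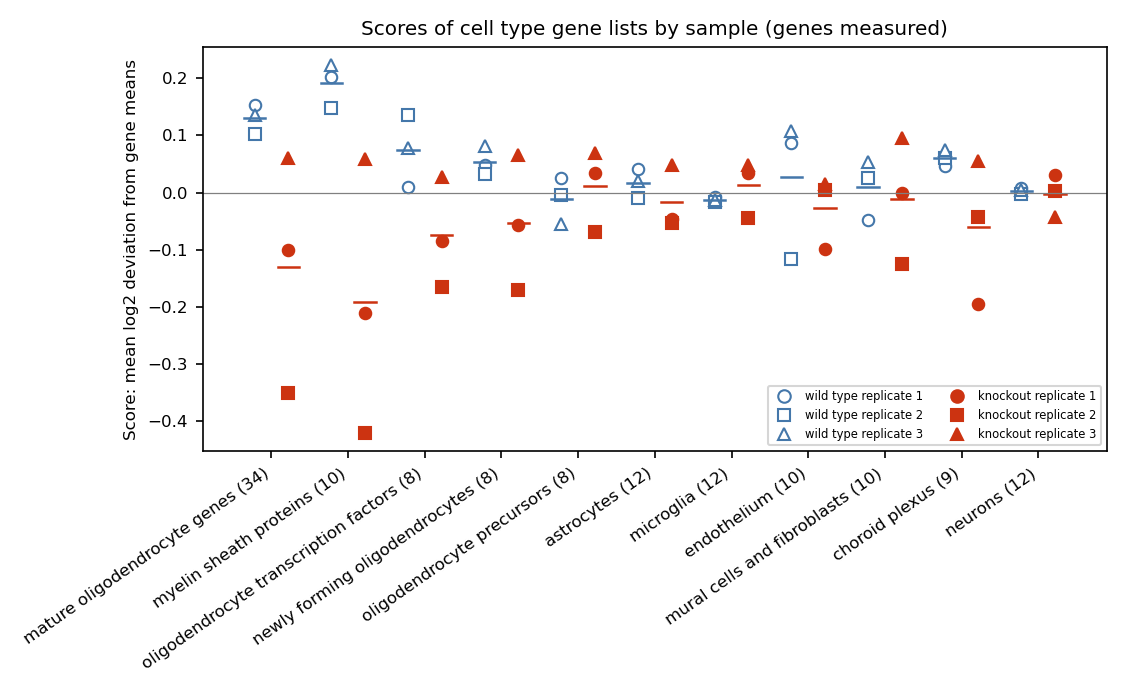
Score of each gene list in each sample (vertical axis, mean log2 deviation of its genes from their means over all 6 samples), with the number of genes measured in brackets. Open blue symbols are wild type and filled red symbols knockout, the shape gives the replicate as in the legend, and short lines are group means. The mature oligodendrocyte genes and myelin sheath proteins show the widest spread among knockout samples, from 0.06 to -0.35 and from 0.06 to -0.42.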

How the data were processed

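The authors deposited 1 table of log2 signals for 41345 probe sets and 6 arrays. The submitters' processing notes name RMA and Affymetrix Power Tools, with versions, annotation and build not given in the sources used here. RMA in general equalises the arrays, so that a shift of most genes together is removed. Probe sets were named from a platform table, which can be old: 23521 named 1 gene, 1814 several and 16010 none. Knockout and wild type were grouped by the labels and compared over 22180 genes with limma 3.58.1 (lmFit, eBayes) in R 4.3.3, with Benjamini-Hochberg adjustment at 0.05, checked on simulated data. The number of arrays limits the precision.

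The members and the 18 lists set beside them were chosen with earlier results of these data known. The naming rule named every member, and of each other list the genes with an unadjusted p under 0.05 and the 2 brightest; the latter, and most myelin sheath genes, are left unprinted because no result turned on them. A score is the average, over genes, of a sample's deviation from each gene's mean. Alternatives were 2 normalizations, other variance models, array weights, a filter on dim genes, the mean of a gene's probe sets, a replicate block and leaving out each sample. Promoter sequences are from RefSeq (GRCm38.p6). Figures used matplotlib 3.10.9 in Python 3.11.15.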

Additional observations from a re-analysis of the deposited data

How the results depend on the processing

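Over the 13 alternatives, 32 of the 34 members kept their sign and 0 passed the adjusted threshold. With a sample left out, Gjb1 ran from -0.29 to 0.0069 (the latter without knockout replicate 2) and Ppp1r14a from -0.023 (without knockout replicate 1) to 0.16. Of the other genes named, Acss1 turned to -0.054 with the mean of all probe sets of a gene. Members lower numbered 30 to 32 with a sample left out (45.0% to 46.5% of all genes), and the score difference lay between -0.36 and -0.15. The 11 members lower at an unadjusted p under 0.05 became 18 with trend and robust variance and 6 to 21 with a sample left out, fewest without wild-type replicate 1, wild-type replicate 3 or knockout replicate 2. Of all genes, 2.6% were lower at that p with trend and robust variance, and 2.11% to 3.19% with a sample left out. Members higher at that p numbered 0 to 1. The 14 members with groups apart became 12 with quantile normalization (5.19% of all genes), without Ugt8a and Il33, and 13 with median centring (4.89%), without Il33. With a sample left out they numbered 14 to 27 (8.3% to 10.1% of all genes), where 2 against 3 samples separate more easily. Same-numbered samples did not deviate together (correlation of their deviations over genes 0.067, 0.0348 and -0.00382 for numbers 1 to 3), so the numbers were not taken as pairs. With the replicate block 14 members were lower at an unadjusted p under 0.05 (2.68% of all genes), and 0 genes were called. Quantile normalization left 11 members lower at that p (2.96% of all genes) and median centring 11 (2.79%). Over all genes the count of 0 called became 1 when a variance trend with robust estimation was used, namely Trpc4 (-0.70, adjusted p 0.0378). It was 0 to 1 with a sample left out (1 without knockout replicate 1). That gene was not Trpc4, whose limma adjusted p was 0.884 without knockout replicate 1. No raw scans were used, so signal over background is not known.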
